A study of Mus musculus with 4 samples.

Results

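The regions described here are stretches of open chromatin that multipotent progenitors of the mouse bone marrow shared across every library of the study and that lie far from protein-coding genes. Peaks sharing at least 1 bp on chromosomes 1 to 19, X and Y were joined into regions. Members were chosen by 3 criteria: a peak in all 4 lists, a width under 1500 bp, and a midpoint more than 50 kb from the body of every protein-coding gene of mm10. The rule was met by 3880 of the 77914 regions in the series (4.98%). They make up 9.22% (95% Wilson interval 8.95 to 9.50) of the 42090 shared regions under 1500 bp, called compact here, while the other 38210 lie in a gene body or within 50 kb of such a gene. A further 48 far shared regions were left out for their width. Because presence in all 4 lists selected the members, their presence is a description and is not tested.

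The series profiled MPP3 cells, progenitors biased towards granulocytes and monocytes, by ATAC-seq, in which a transposase cuts open chromatin and marks it for sequencing. The cells were sorted from bone marrow of WT-iMOS mice aged 3 months, and the genotype label puts 2 libraries in a T1 group and 2 in a T2 group. What T1 and T2 stand for, and which alleles or agents set them apart, is not explained by the labels, and the design text names the role of Bcl11a, a zinc-finger transcription factor of blood progenitors, as the question. No label ties the replicates to separate animals, so the spread between them may be technical.

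Open chromatin outside promoters often marks enhancers, short stretches that transcription factors bind and that can act on a gene over long distances. Genes that set cell identity are commonly flanked by gene deserts, long stretches without protein-coding genes, in which several such elements lie scattered. Others of these sites mark starts of long non-coding RNAs (lncRNAs), binding sites of the insulator protein CTCF, or gene segments of the antigen receptor loci. The factors PU.1, RUNX1, C/EBP and AP-1 are well known at enhancers of myeloid progenitors.

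Sequence could be shown for members that reach the start of an annotated RNA, and 4 were chosen after their values were seen. They are the stretches of start windows inside 2 of the 10 strongest members, a strong member that holds a complete window, and the member at the start of an lncRNA in the desert beside Bcl11a. All are from RefSeq on GRCm38.p6, read in the direction of transcription. Capitals mark matches to the RUNX letters TGTGGT, the AP-1 letters TGANTCA or the C/EBP letters TTGCNNAA on either strand.
Gm33195, chr13:43864322-43864605, plus strand: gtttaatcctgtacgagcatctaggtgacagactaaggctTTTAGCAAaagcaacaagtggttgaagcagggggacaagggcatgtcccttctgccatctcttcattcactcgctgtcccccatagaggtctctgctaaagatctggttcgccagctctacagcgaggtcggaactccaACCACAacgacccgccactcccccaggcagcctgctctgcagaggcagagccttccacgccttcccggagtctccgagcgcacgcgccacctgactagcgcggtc
D130051D11Rik, chr15:85634380-85634645, plus strand: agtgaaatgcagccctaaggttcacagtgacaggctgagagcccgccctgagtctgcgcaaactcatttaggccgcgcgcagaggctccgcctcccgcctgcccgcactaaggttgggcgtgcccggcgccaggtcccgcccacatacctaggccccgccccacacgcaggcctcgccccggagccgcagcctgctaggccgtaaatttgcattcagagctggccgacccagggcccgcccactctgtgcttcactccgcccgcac
LOC115487176, chr9:61013180-61013479, plus strand: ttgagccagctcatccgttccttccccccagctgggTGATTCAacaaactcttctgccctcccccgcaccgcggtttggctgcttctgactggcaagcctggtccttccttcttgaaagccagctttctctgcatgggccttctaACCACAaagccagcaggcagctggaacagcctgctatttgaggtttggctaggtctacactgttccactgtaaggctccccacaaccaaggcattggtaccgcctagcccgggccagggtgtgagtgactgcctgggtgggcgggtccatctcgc
5730522E02Rik, chr11:26210527-26210826, minus strand: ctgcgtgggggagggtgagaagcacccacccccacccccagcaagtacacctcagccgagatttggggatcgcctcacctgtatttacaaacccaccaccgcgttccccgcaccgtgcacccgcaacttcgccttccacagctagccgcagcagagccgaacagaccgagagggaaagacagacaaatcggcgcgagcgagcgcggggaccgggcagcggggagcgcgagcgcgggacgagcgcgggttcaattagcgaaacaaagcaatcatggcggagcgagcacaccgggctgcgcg
The first, between Cd83 and Jarid2, holds a RUNX and a C/EBP match, and the third, between Uaca and Tle3, holds an AP-1 and a RUNX match. Neither of the other sequences holds any of these letters, nor those searched for PU.1, GATA factors or BCL11A. The member with the Gm33195 start had −log10 q values of 281 and 230 in the T1 libraries and 296 and 264 in the T2 libraries. At the 5730522E02Rik start the values were lower, at 76.3 and 54.6 in T1 and 77.4 and 74.0 in T2. Strength at a shared far region therefore ran over a wide range even among lncRNA starts.

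In all, 187 members (4.82%) touched an annotated 300-base start window and 119 held a complete window. PU.1 letters (GAGGAAG) were found in 31 of these 119 windows (26.1%, Wilson interval 19.002 to 34.597), against 13.5% of 9533 lncRNA windows and 13.5% of 17491 protein-coding windows of the same length. RUNX letters were in 29.4% of the members' windows, against 20.004% and 15.334%. AP-1 letters were in 14.3%, against 9.48% and 7.05%. For C/EBP the shares were 15.1%, 11.8% and 10.2%, and for GATA factors, with AGATAAG, they were 5.04%, 3.82% and 2.67%. The letters searched for BCL11A, TGACCA, were in 10.1% of the members' windows, 15.5% of lncRNA windows and 12.7% of coding windows. The RUNX and BCL11A searches use 6 fixed letters, and those for PU.1 and GATA factors 7. Those for AP-1 and C/EBP span 7 and 8 positions, some of them open to any base. The shares therefore compare between kinds of window and not between motifs. The members' windows lie inside shared peaks, and no set of windows limited to shared peaks at genes was compared. Whether the differences are particular to far regions was therefore not tested. A match describes the letters and shows no binding, and the members' windows were few.

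The deposited lists held 58454 and 54045 peaks in T1 and 66764 and 62704 in T2, and read depth is not given in the sources used here. Regions shared by all 4 lists lay within 1 kb of an end of 7 of 8 progenitor markers (Kit, Cd34, Cd48, Flt3, Spi1, Runx1 and Cebpa, but not Mpo). Of 3 markers each for T cells, B cells, mature neutrophils, and liver and neural tissue, 1 per set had such a region (Cd3e, Cd79a, Mmp8 and Alb), and of 3 stromal and endothelial markers 2 had (Col1a1 and Cxcl12). Open ends of these genes do not show expression, and the part of other cells in the members was not tested.

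Members were narrower than shared regions at genes, and weaker by −log10 q but not by fold. Strength is given as the rank of a region's best −log10 q among the 44274 regions shared by all 4 lists, as a percentile within each library, with 100 the strongest. Each list thus ranks the same regions, and the rank is relative, so some regions rank lower when others rank higher. A peak open in fewer cells and a peak less open in each cell cannot be told apart in bulk libraries. The median member stood at percentile 41.0 and 41.1 in T1 and at 41.5 and 42.2 in T2. The other compact shared regions stood at 49.7 to 49.8 in every library. On the deposited −log10 q scale the members' medians were 26.4, 20.9, 32.4 and 27.6, in the order T1 replicates 1 and 2 and T2 replicates 1 and 2, against 33.0, 26.1, 39.5 and 33.1 at genes. The strongest 10% of shared regions took in 2.65% to 3.94% of members per library, against 10.1% to 10.3% of the others.

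The fold over local background did not share this order, and in T2 its median was higher among members than at genes. Its median among members was 10.5 and 10.2 in T1 and 11.05 and 10.99 in T2, beside 10.5 and 10.2, and 10.7 and 10.7, at genes. Members had the lower median fold in T1 replicate 2 only. Median peak width was 527, 478, 561.5 and 524 bp in the 4 libraries, against 600, 539, 629 and 581 bp, and the joined member was 647.5 bp wide at the median against 717 bp. The libraries placed the summits of a member closely: the median difference was 28.5 bp within T1, 26 bp within T2 and 30 bp between groups, and in 74.0% of members all 4 strongest summits lay within 100 bp.

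Strength ranked by −log10 q was lower outside gene bodies and lower again beyond 50 kb, while the bands beyond 50 kb differed little from each other. Members lay at a median of 103 kb from the nearest gene body (quartiles 69.5 and 176 kb). At 50 to 100 kb from a gene were 1882 members, at 100 to 200 kb 1223, at 200 to 500 kb 659 and beyond 500 kb 116. Median ranks in these bands ran from 39.0 to 43.6 over the libraries, whereas regions in gene bodies stood at 51.3 to 51.5 and those outside bodies but within 50 kb at 46.6 to 47.0. In the band of 200 to 500 kb both T2 libraries (42.9 and 42.2) stood above both T1 libraries (40.1 and 39.0). In the other bands beyond 50 kb the medians of the T1 and T2 libraries overlapped. The farthest member (chr5:59996479-59997066), in the desert between Pcdh7 and G6pd2, lay 1812 kb from the nearer of these. It was of middling strength, at percentiles 58.1 and 58.5 in T1 and 69.6 and 63.6 in T2.

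**Figure D1:**
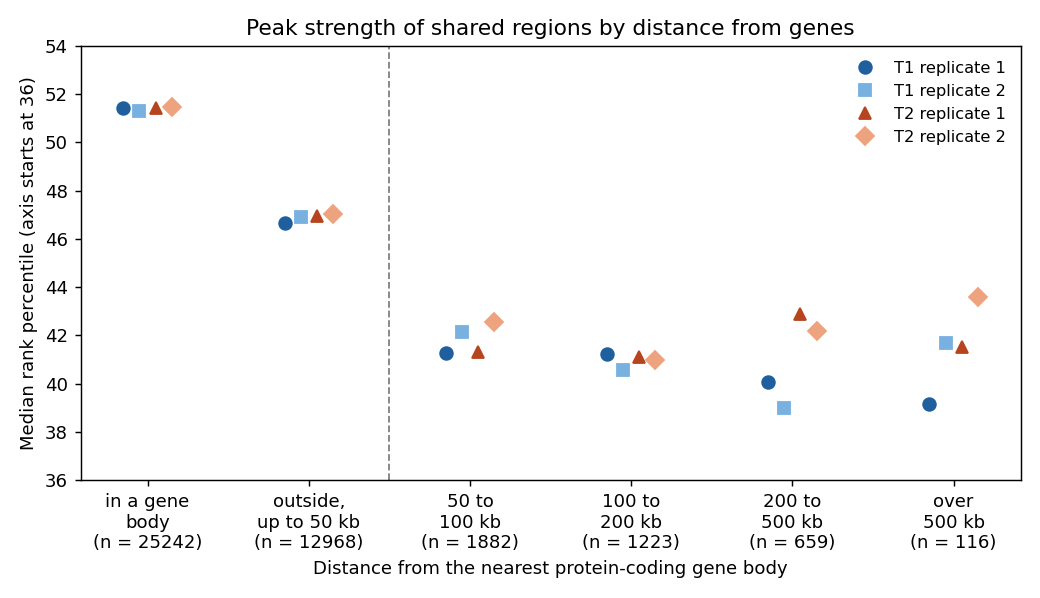
Median rank percentile (vertical axis, not starting at 0) of compact shared regions by distance from the nearest protein-coding gene body, with 1 point per library; bands right of the dashed line hold the members. Medians are 51.3 to 51.5 in gene bodies and 39.0 to 43.6 beyond 50 kb, and the libraries spread most in the 2 farthest bands.

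Regions at the limits of the rule varied widely in strength. The 2 members just inside the 50 kb limit, at 50.009 kb (Bbx) and 50.014 kb (Tmco5), had mean ranks of 16.1 and 31.4. The 2 regions just outside it, at 49.99 kb (Akap7) and 49.983 kb (4930519L02Rik), had 95.7 and 5.88. Just inside the width limit were members of 1498 bp (near Efcab11, mean rank 88.5) and 1477 bp (near Tmpo, 77.1). The 2 regions just outside it, of 1511 bp (near Abca1) and 1513 bp (near Irf2bp2), stood at 64.5 and 77.8.

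The strongest members differed in what lay under them. The strongest, between Axin2 and Rgs9 and inside the predicted gene Gm36876 (chr11:109011646-109012177, mm10 as are all positions here), held the highest rank of all shared regions in every library. Its −log10 q was 1893 and 1522 in T1 and 1336 and 944 in T2, while its fold stayed between 34.4 and 35.6. These −log10 q values stand far above those of the other members, and whether reads from similar sequence elsewhere collect there was not tested. The next strongest, at the Gm33195 start shown above, had the −log10 q values given above and folds of 23.1 to 23.6. The third overlaps the 18S ribosomal RNA copy Rn18s-rs5, and its folds of 2.63 to 2.78 were far below those of the other strongest members. Ribosomal RNA genes exist in many near-identical copies, so reads there may come from elsewhere and its value is uncertain.

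The fourth, at the D130051D11Rik start between Wnt7b, a secreted WNT ligand, and Ppara, a nuclear receptor of fatty acid metabolism, had −log10 q values of 320, 239, 293 and 226. The fifth (chr15:63647843-63648797) lay between Myc and Gsdmc, with 264, 209, 259 and 244. The sixth (chr17:83990388-83991109), between Haao and Zfp36l2, a decay factor of AU-rich messenger RNAs, had 270 and 197 in T1 and 269 and 251 in T2. It ranked higher in both T2 libraries, but by 0.50 percentile points only. The others were by Glrp1 and Arl4c, by Aff3 and Lonrf2, inside the p53-induced lncRNA Lncpint, and between Uaca and Tle3, a corepressor of the Groucho family.

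Members ranked higher in T2 more often than the reverse. Both T2 libraries stood above both T1 libraries in 1172 members (30.2%, Wilson interval 28.8 to 31.7), against 26.3% of all shared regions and 26.5% of the compact regions at genes. Both T1 libraries stood above both T2 libraries in 904 members (23.3%, 22.0 to 24.7), against 26.2% of all and 25.7% at genes. The members' share lay above the background in the T2 direction and below it in the T1 direction. With a gap of at least 10 percentile points, 301 members (7.76%) ranked higher in T2 against 5.98% of all shared regions, and 289 (7.45%) ranked higher in T1 against 6.26%. Both shares then lay above the background. Regions of mean rank above 75 made up 11.8% of members and 24.3% of compact regions at genes, and such gaps were rare among them. There they were reached by 2.18% of members for T2 and 0.44% for T1, against 1.02% and 0.85% at genes. Whether the excess of large gaps remains among regions of like strength was not tested.

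Over whole libraries the size of the difference depended on the ranking. The median member stood at 41.1 ± 0.0331 in T1 and 41.8 ± 0.474 in T2 (SD, n = 2 each), a difference of 0.77 percentile points. It was 2.87 points with ranks taken by fold and 1.48 points for members beyond 100 kb. All of the T2 medians exceeded all of the T1 medians, and the exact two-sided permutation test gave p = 0.333, the smallest that 2 against 2 libraries allow. Member by member, the median of T2 minus T1 was 1.13 points, with quartiles of −6.03 and 8.45. At genes the median was 0.08 points. The regions are not replicates, and the intervals on their shares cover counting only.

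**Figure D2:**
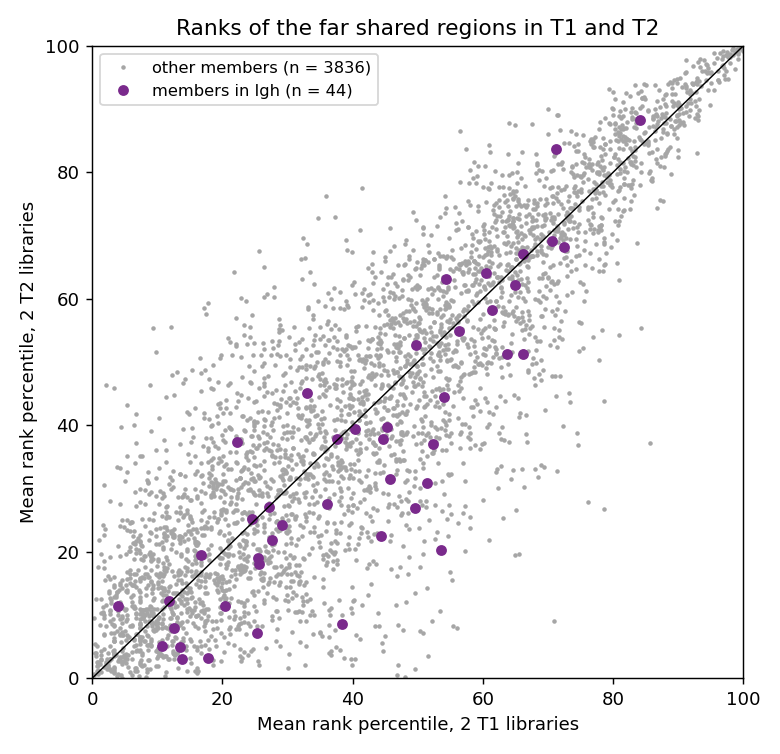
Each point is a far shared region, with its mean rank percentile over the 2 T1 libraries (horizontal) against that over the 2 T2 libraries (vertical); the line marks equal ranks. Members in the immunoglobulin heavy chain locus (purple, 44) lie below the line in 31 cases.

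With ranks by −log10 q, the share of members with both T2 libraries above both T1 libraries was highest among strong members. Members were divided into 4 equal steps of the rank scale by their mean over the 4 libraries, a division chosen after seeing the data. In the lowest step 23.9% of members ranked higher in T2 and 24.1% in T1, close to the 22.9% and 23.8% at genes. In the second these shares were 30.2% and 24.6%, and in the third 32.7% and 23.0%. In the top step, of 459 members, 188 (41.0%) ranked higher in T2 and 84 (18.3%) in T1. Regions at genes in the same step gave 28.4% and 26.7%. With ranks taken by fold, the top step held 862 members and gave 28.9% and 15.3%, against 19.5% and 24.7% at genes. Over all members the shares by fold were 28.8% and 19.6%. By fold the T2 share was therefore hardly higher in the top step than among all members. When each library was left out in turn, the share higher in T2 stayed between 45.9% and 54.1% in the top step against 38.3% to 40.3% at genes. The median T2 minus T1 was 0.04, 1.48, 1.80 and 1.44 points from the lowest to the top step, so it was not largest in the top step. Gaps in the top step were small, and 10 members there reached 10 percentile points in favour of T2 and 2 in favour of T1.

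**Figure D3:**
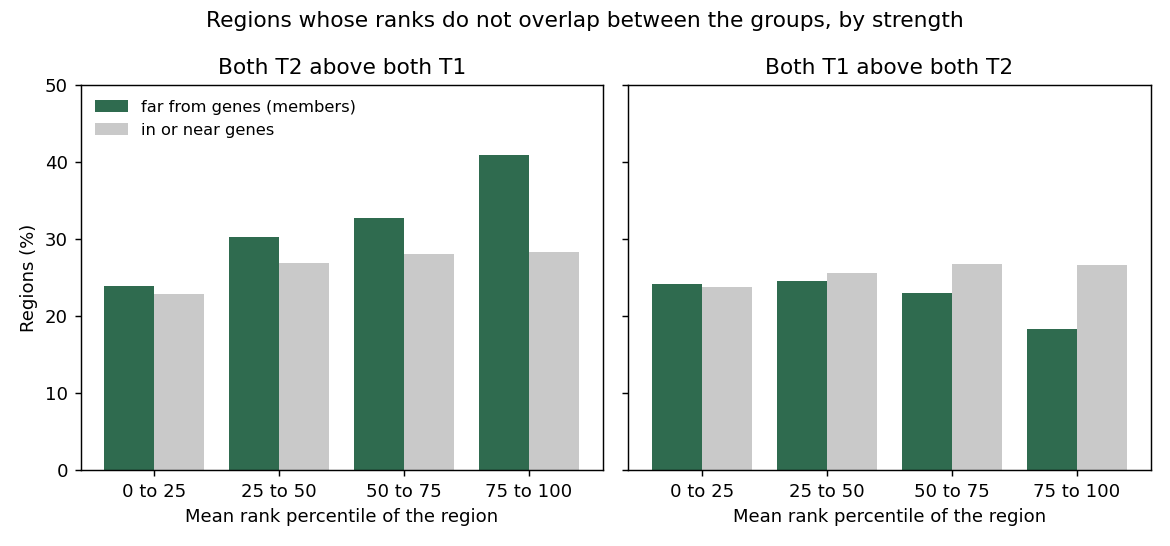
Share of regions (bars from 0, in percent) whose ranks do not overlap between the groups, in favour of T2 (left) and T1 (right), by the mean rank percentile of the region. Members (green) run from 23.9% in the lowest to 41.0% in the highest step in favour of T2 and from 24.1% to 18.3% in favour of T1, while regions in or near genes (grey) lie between 22.9% and 28.4%.

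The members with the widest gaps were picked by rank difference among those whose ranks did not overlap between the groups. Between Dyrk2, a protein kinase, and Cand1, an exchange factor of cullin ligases, a member (chr10:119100359-119101031, in the predicted gene 1700064J06Rik) had −log10 q values of 4.81 and 10.7 in T1 and 42.8 and 40.2 in T2. Its percentiles were 1.23 and 17.5 against 53.1 and 57.6, a difference of 46.0 points. Members between Ccdc59 and Ppfia2, Rai14 and C1qtnf3, and Hs3st4 and 4930571K23Rik, and 1 near the ETS factor gene Elk3, followed with differences of 42.3 to 44.3 points. Their T1 peaks had −log10 q values of 3.24 to 16.0 and their T2 peaks 28.6 to 53.5.

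In the opposite direction the widest gap lay between Smim20 and Rbpj, the DNA-binding factor of Notch signalling. That member (chr5:53378296-53379112, outside any annotated gene) had −log10 q values of 59.5 and 48.1 in T1 and 10.6 and 11.2 in T2, and its fold was 16.8 and 16.7 against 6.89 and 7.60. T2 minus T1 was −61.9 percentile points, the widest gap of either sign among the members whose groups did not overlap. A member between Irf2bp2 and Tomm20 followed, with 87.9 and 56.5 against 25.5 and 16.2. The others lay between Kctd1 and Aqp4, Kcnrg and Dleu7, and Pip4k2a, a phosphoinositide kinase, and Armc3, with T2 minus T1 between −48.4 and −48.2 points. The choice of these 10 members by rank fixed that their T1 and T2 values did not overlap in −log10 q. Their fold values did not overlap either, but both scales describe the same peaks.

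Members were spread unevenly over deserts, with a median of 2 per desert that held any. They fell into 1086 deserts, of which 419 held 1 member and 85 held at least 10. These 85 contained 1257 members (32.4%). Within deserts, midpoints closer than 25 kb to the next were joined into clusters, which gave 755 clusters, 118 of them with at least 5 members, while 1472 members (37.9%) stood alone. The territory more than 50 kb from protein-coding bodies covers 1007 Mb, or 37.4% of the span examined. It held 3.85 members per Mb, against 22.7 compact shared regions per Mb nearer to genes. Density was highest on chromosome 13, where 319 members lay (7.06 per Mb), and 1.09 per Mb on the X chromosome. Compact shared regions nearer to genes were also sparser on the X chromosome, at 7.99 per Mb. The Y chromosome held 1 member, outside the stretches between its genes.

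The densest desert was the 0.335 Mb between Haao, an enzyme of tryptophan breakdown, and Zfp36l2, with 27 members or 80.6 per Mb. All 27 formed a run of 224 kb with a median rank of 67.1, and 12 ranked higher in T2 and 6 in T1. Of all shared regions 26.3% ranked higher in T2 and 26.2% in T1, and no desert was tested against these shares. The desert between Cd83, a surface protein of antigen-presenting cells, and Jarid2, a partner of Polycomb complexes, also held 27, of which 13 ranked higher in T2 and 4 in T1. Serp2 to Lacc1, Id2 to Rnf144a, and Gadd45g to Diras2 held 26 each, and Prl5a1 to Sox4 and Klf14 to Mkln1 held 24 each. By density, Max to Fut8 (61.8 per Mb), Spring1 to Med13l (57.2), Serp2 to Lacc1 (56.0) and Klf14 to Mkln1 (54.6) followed the Zfp36l2 desert. In the desert of Sox4, a factor of progenitor and B-cell development, 11 of 24 ranked higher in T1 and 6 in T2.

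The largest clusters after the one beside Zfp36l2 held 16 members each, between Ly86 and Rreb1 and between Max and Fut8. The first was strong, with a median rank of 68.7, and the second weak, at 30.3. A cluster of 14 lay 61.4 kb and more from Id2, an inhibitor of helix-loop-helix factors, of which 9 ranked higher in T2 and 3 in T1. Another 14 lay between Bcl2l11, which encodes the pro-death protein BIM, and Spdye4c, with a median rank of 56.0. In that cluster 5 ranked higher in T2 and 6 in T1. No cluster was tested against the 26.3% and 26.2% of all shared regions. Morrbid, an lncRNA known to act on Bcl2l11 in short-lived myeloid cells, covers 12 members.

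**Figure D4:**
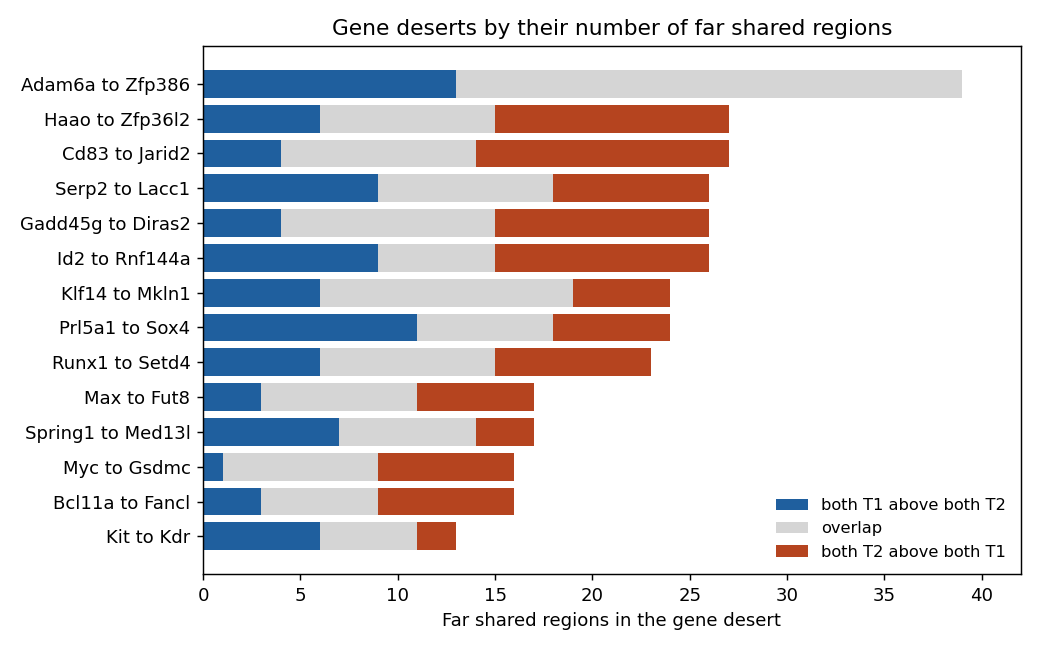
Number of far shared regions per gene desert (horizontal axis, from 0) for the 10 named for count or density and for those beside Runx1, Myc, Bcl11a and Kit; blue and red mark members whose ranks do not overlap between the groups and grey the rest. The desert from Adam6a to Zfp386 holds 39 members, 13 of them higher in T1 and 0 higher in T2, beside 26.2% and 26.3% of all shared regions.

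The desert with the most members lies inside the immunoglobulin heavy chain locus, Igh, and here the direction was the reverse of that among members as a whole. Between Adam6a and Zfp386 39 members were found over 2.50 Mb, with 13 higher in T1 and 0 higher in T2. The Igh locus as a whole held 44 members, of which 14 (31.8%) ranked higher in T1 and 2 (4.55%) in T2, beside the 26.2% and 26.3% of all shared regions. Their median −log10 q was 26.8 and 21.7 in T1 and 25.7 and 22.2 in T2, at percentiles 41.7 and 42.6 against 31.9 and 33.4. The median T2 minus T1 was −5.15 points, and 31 of 44 stood lower in T2. By fold, 11 of 44 ranked higher in T1 and 3 of 44 in T2, against 25.8% and 22.4% of all shared regions. The T1 share by fold was thus close to that of all shared regions, and only the T2 share lay well below it. A gap of 10 points was reached by 5 members in favour of T1 and 0 in favour of T2, against 6.26% and 5.98% of all. Leaving out each library in turn gave 21 to 27 higher in T1 and 5 to 12 higher in T2 of 45 to 52 members. The shares of all shared regions were then 37.1% to 38.1% for T1 and 38.0% to 38.5% for T2. These members share a locus and are not independent. Variable segments are also close copies of each other, so how reads were shared among them could not be checked.

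The T-cell receptor loci held fewer members, and none was tested against the 26.3% (T2) and 26.2% (T1) of all shared regions. Tcra held 16 members, of which 4 (25%) ranked higher in T2 and 3 (18.75%) in T1, not far from those shares. Tcrb held 5, of which 0 ranked higher in T2 and 2 in T1. Inside Tcra, the Tcrd segments held 6 (3 and 1). A difference between the loci was not tested. The 2 copies of a microRNA in the Igh desert illustrate the repeated sequence there, and the mature product of both is shown with its seed (bases 2 to 8) in capitals.
mmu-miR-7094-3p: uACUCUGCuguucucuccaca
mmu-miR-9-5p: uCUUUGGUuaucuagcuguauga
The first is encoded by Mir7094-1 and by Mir7094-2, in members 923 and 967 kb from the nearest gene body, so the same bases occur in both members. The second is the brain-enriched miR-9, from Mir9-2 in the desert between Mef2c and Tmem161b, shown because it lies in a member of low strength. That member had −log10 q values of 6.66 and 8.03 in T1 and 10.05 and 8.76 in T2, at a mean rank of 6.29. The sequences are those of RefSeq.

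The desert beyond Bcl11a is 2.21 Mb long, reaches to Fancl and held 16 members of modest strength, with a median rank of 25.9. Of these 7 ranked higher in T2 and 3 in T1, and T2 stood above T1 on average in 12. The first 11 lay 53.4 to 229 kb beyond the 3′ end of Bcl11a. The nearest, 53.4 kb away in the predicted gene Gm33440, had −log10 q values of 59.2 and 52.0 in T1 and 91.4 and 64.0 in T2. The next, at 69.6 kb (chr11:24242869-24243523), had 43.7 and 31.4 against 78.1 and 84.6, and its rank was 20.5 points higher in T2. The groups did not overlap in −log10 q in either, but by fold they did: 15.0 and 16.3 against 16.2 and 13.8 in the first, and 12.4 and 11.4 against 12.1 and 14.1 in the second. At 184 kb (chr11:24357168-24357716) the order was the reverse, with 31.2 and 25.4 in T1 and 8.01 and 15.8 in T2, and T2 minus T1 was −36.2 points.

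Toward Fancl, 4 members lay in the lncRNA 5730522E02Rik. The strongest, at its start, was printed above and reached a mean rank of 76.7 with no call between the groups. On the other side of Bcl11a, toward Papolg, 2 members were found, with mean ranks of 22.5 and 23.9. The first had −log10 q values of 24.4 and 18.5 in T1 and 9.76 and 10.3 in T2, and ranked higher in both T1 libraries. Members of both directions thus lay around Bcl11a.

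Myc, the growth-control factor, and Gsdmc flank a desert of 1.79 Mb with 16 members in 2 groups, 7 of them higher in T2 and 1 in T1. The first group, of 7 members 89.3 to 220 kb from Myc, lay in the lncRNA Pvt1 and was weak, with a median rank of 25.2. The second, of 9 members, lay 1612 to 1732 kb from Myc and 54.1 to 174 kb from Gsdmc, in the part of the desert known for a cluster of blood enhancers that act on Myc. Its median rank was 49.6, and it includes the fifth strongest member of all. In this group 4 members ranked higher in T2, 0 ranked higher in T1 and 5 overlapped.

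Within that distal group the strongest member and 4 others overlapped between the groups. The strongest stood at percentiles 99.2 and 99.1 in T1 and 99.1 and 99.6 in T2. At 1612 kb from Myc a member (chr15:63601636-63602181) had −log10 q values of 17.4 and 15.6 in T1 and 35.8 and 39.2 in T2, and ranked 23.6 points higher in T2. Others at 1675 and 1689 kb ranked 23.0 and 22.0 points higher. The shares that ranked higher in T2 here, 4 of 9, and beyond Bcl11a, 7 of 16, exceed the 26.3% of all shared regions but rest on few regions of shared location, chosen after values were seen.

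**Figure D5:**
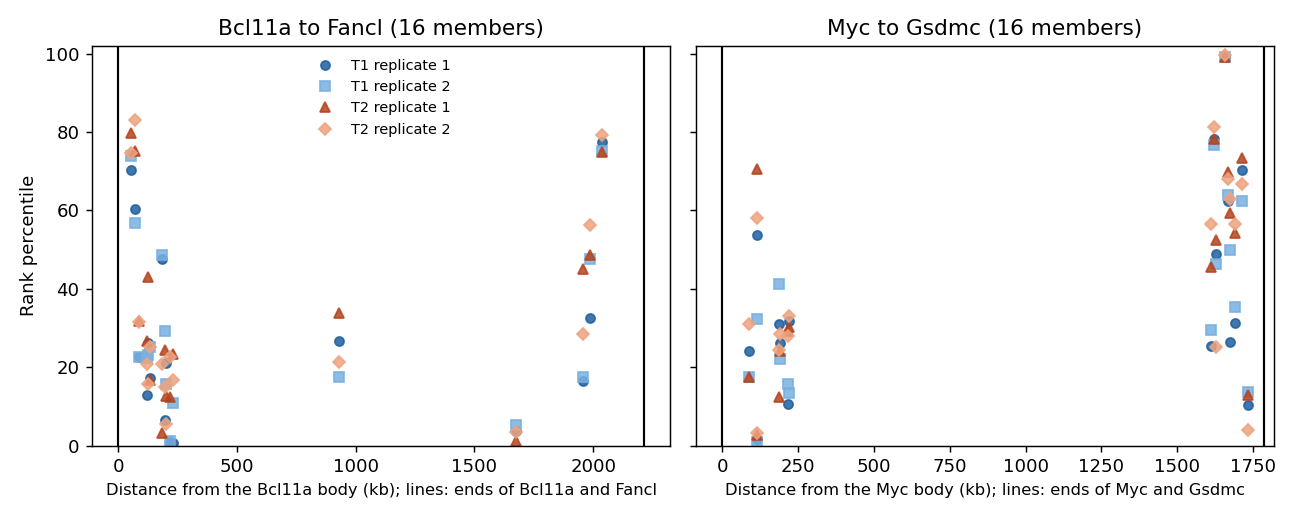
Rank percentile (vertical) of every far shared region in each of the 4 libraries by its distance in kb from the body of Bcl11a (left panel) or Myc (right panel); vertical lines mark the ends of the flanking genes. The members beyond Bcl11a group within 53.4 to 229 kb of it and near Fancl, and those beyond Myc form a weak group in Pvt1 and a stronger group 1612 to 1732 kb away that reaches percentile 99.6.

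Deserts beside other regulators of progenitors showed mixed directions. Between Kit, the stem cell factor receptor, and Kdr, an endothelial growth factor receptor, 13 members lay, 2 higher in T2 and 6 higher in T1. The strongest of them, 74.3 kb beyond the 3′ end of Kit (chr5:75730465-75731571), had −log10 q values of 195 and 195 in T1 and 219 and 203 in T2, which overlap as percentiles. A member 170 kb beyond Kit ranked 22.7 points higher in T2, and for its neighbour at 152 kb T2 minus T1 was −23.1 points. In the desert upstream of Runx1, the core-binding factor needed for blood stem cell formation, 23 members included 8 higher in T2 and 6 higher in T1. Of all shared regions 26.3% and 26.2% did so, and no difference from those shares was tested. The strongest member near Id2 had −log10 q values of 120 and 91.0 in T1 and 174 and 110 in T2, and that near Cxcr4, the chemokine receptor that retains progenitors in the marrow, had 157, 118, 148 and 118.

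Grouped by the nearest protein-coding gene, members were counted over 8 gene lists. Of 66 transcription factors of blood cells, 37 were nearest to at least 1 member, and together they took 227 members (5.85% of all members), whereas they took 1.14% of the compact shared regions at genes. Of the compact shared regions assigned to these factors, 34.2% were far. Their members' median rank was 38.9, and 33.0% ranked higher in T2 and 22.5% in T1, beside the 26.3% and 26.2% of all. Id2 led with 21 members, followed by Sox4 (18), Runx1 (15), Foxo1, a factor of quiescence and lymphoid genes (13), and Bcl11a (13). Regulators of non-blood tissues, such as Sall3 with 12 members and Irx3 with 4, had a like profile: they took 1.39% of members and 0.338% of regions at genes, and 29.5% of their regions were far. Of their 54 members 22 (40.7%) ranked higher in T2 and 5 (9.26%) in T1.

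Immediate early and inflammatory genes were nearest to 48 members, of which 8 (16.7%) ranked higher in T2 and 15 (31.3%) in T1, beside 26.3% and 26.2% of all shared regions. The leaders were Zfp36l2 (12), the AP-1 subunit gene Jun (9), the phosphatase gene Dusp6 (8) and Tnfaip3, an inhibitor of NF-κB signalling (7). Members near Tnfaip3 were strong, with a median rank of 79.2. Cytokine receptors and surface proteins were nearest to 45 members, with 8 (17.8%) higher in T2 and 12 (26.7%) higher in T1, the second share close to that of all shared regions. They were led by Cxcr4 (12), Ptprc, which encodes CD45 (7), Kit (7) and Cd47, the anti-phagocytic signal (5).

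The lists of lineage genes had fewer members, and a smaller share of their regions was far than for the transcription factors. That share was 16.9% for granulocyte and monocyte genes, 12.7% for lymphoid genes, 10.9% for erythroid and megakaryocyte genes and 12.5% for neuronal adhesion genes, beside the 9.22% of all compact shared regions. Granulocyte and monocyte genes had 12, at only 2 of 24 genes, Ly86 (9) and Irf8, a monocyte and dendritic cell factor (3), with a median rank of 61.4. Lymphoid genes had 13, with a median rank of 21.2, and Lef1, a WNT effector, had 5 of these. Erythroid and megakaryocyte genes had 10, and neuronal adhesion genes had 6, led by Epha4 with 2. The nearest gene is a label of position and need not be the gene a region acts on.

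Many members are far from protein-coding genes but not from every annotated gene. A non-coding entry of the RefSeq table overlapped 1264 members (32.6%), mostly lncRNAs (1149, 29.6%), then antigen receptor loci (68) and pseudogenes (46). The other 2616 (67.4%) overlapped no entry. Only 635 members (16.4%) lay more than 50 kb from every entry of any kind, so "far from genes" holds for protein-coding genes as the rule defines them. After Igh and Tcra, the non-coding genes with the most members were Lncpint (15), Morrbid (12), Pvt1 (7) and Zmiz1os1 (6). Where the strand of the nearest gene was known (2965 members), 55.1% lay upstream of it (Wilson interval 53.3 to 56.9) and 44.9% beyond its 3′ end.

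Far regions were less often shared than regions at genes. Of 8183 compact regions beyond 50 kb in any list, 47.4% had a peak in all 4 lists, 8.96% in both T2 lists alone and 2.96% in both T1 lists alone. Of 67545 compact regions at genes these shares were 56.6%, 6.86% and 2.33%. Read the other way, 733 of 5364 T2-only regions (13.7%, Wilson interval 12.8 to 14.6) and 242 of 1814 T1-only regions (13.3%, 11.9 to 15.0) were far, against the 9.22% of shared regions. Other regions missing from some list had like shares. These were 12.3% for regions in 3 lists, 11.9% for 1 T1 and 1 T2 list, and 12.9% for 1 list. A higher far share was thus not particular to group-only regions. Group-only far regions often lay in deserts that hold members: 608 of the T2-only (82.9%) and 222 of the T1-only (91.7%). How much of the far territory these deserts cover was not measured, so the 2 shares have no base rate beside them. The T2 lists are longer, so counts of T2-only and T1-only regions do not compare as numbers of open sites, while the intervals of their shares far from genes overlapped.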

How the data were processed

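ATAC-seq libraries of MPP3 cells were made with a commercial kit (Vazyme), per the labels' protocols. The submitters' processing notes name Bowtie2, SAMtools, MACS2 and the build mm10, while versions, settings and read depth were not given in the sources used here. For each library the authors deposited a peak list in the MACS2 column order. In these deposited lists the fold is a ratio of summit height to local background. Significance is deposited as −log10 p and as −log10 q, of which none was under 2. The deposited score restates −log10 q as an integer, and a summit offset gives the summit's place. These are the authors' values and no counts, so no count model was fitted. They served only for ranks and filters inside each list.

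Peaks were joined, ranked and summarised with Python 3.11.15, pandas 2.3.3, NumPy 2.4.6 and SciPy 1.17.1. Positions of 21883 protein-coding genes and of non-coding entries came from RefSeq (assembly GRCm38.p6, the same as mm10). Deserts are stretches between neighbouring protein-coding bodies. No genome sequence was used, so motifs were searched in RefSeq start windows and the planned search around summits was not run. Shares carry 95% Wilson intervals, which cover counting only, and the T1 and T2 medians were compared by an exact permutation test. The code was tested on simulated lists. Alternatives were other distance, width and −log10 q limits, equal list lengths, other joining and ranking, a replicate block and leaving out each library.

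The members, the 8 gene lists (311 symbols, 311 matched) and the settings were chosen with earlier results of these data known. Named in the text were the 10 strongest members, the 5 with the widest gap in each direction, the farthest, those at the limits, the 8 fullest and 5 densest deserts, the 5 largest clusters, up to 4 genes per list and 6 non-coding genes. The deserts of Bcl11a, Myc, Kit and Runx1, the Cxcr4 and Id2 examples, the printed sequences and the microRNAs were added after values were seen. A gene that these rules select, and a set of markers, are not reported here.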

Additional observations from a re-analysis of the deposited data

How the results depend on the processing

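Other limits moved how many regions qualified, and a required gap between ranks changed how the T1 calls stood to the background. The number of members was 6307 at 25 kb and 1998 at 100 kb, and 635 when non-coding entries counted as genes, which made up 15.0%, 4.75% and 1.51% of compact shared regions. The share was 10.4% for widths under 1000 bp, 8.87% with no width limit and 8.67% for peaks with −log10 q of at least 10. Leaving out each library gave 3974 to 4420 members (9.17% to 9.48%). At 100 kb 608 members (30.4%) ranked higher in T2 and 448 (22.4%) in T1, against 26.3% and 26.2% of all shared regions. At 50 kb with a gap of 10 points 301 (7.76%) and 289 (7.45%) did so, against 5.98% and 6.26%. The T1 share then lay above that of all shared regions, whereas without a gap it lay below. Leaving out each library raised the main counts of 1172 for T2 and 904 for T1, since fewer libraries had to agree in order. They then ran from 1658 to 1883 for T2 and from 1320 to 1487 for T1. The share of all shared regions was then 38.0% to 38.5% and 37.1% to 38.1%. The difference of medians kept its sign without each library (0.20 to 1.35 points), and was 2.87 by fold and 1.48 at 100 kb. Single peaks had a median width of 521 bp, averaged over libraries. At 100 kb 7.94% of T2-only and 6.50% of T1-only regions were far. Replicate numbers are tied to no animal, batch or day by the labels, and rank deviations of same-numbered libraries had r = 0.0103 over 44274 regions, so they were not treated as pairs. With the numbers as a replicate block 1438 members (37.1%) ranked higher in T2 and 1137 (29.3%) in T1, against 33.0% and 32.6% of all shared regions. Steps of strength and the Igh counts were added after seeing the data. Unknown depth limits what the absence of a peak means.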
